A study of Mus musculus with 8 samples.

Results

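The genes of the cytosolic translation initiation and elongation factors were taken from a deposited table of FPKM values, an expression unit scaled to gene length and sequencing depth. They are the entries whose names begin with Eif and a digit from 1 to 6 or with Eef and 1 or 2, leaving out the eIF2 kinase genes (Eif2ak) and entries with -ps, which are pseudogenes. Of 66 matching names, 4 kinase genes and 3 pseudogenes were left out, so that 59 of 11783 listed genes remained. The values were measured by RNA-seq in granulosa cells, the somatic cells that surround the oocyte, isolated from the ovaries of neonatal C57BL/6 mice. PND1 stands for postnatal day 1 and PND4 for postnatal day 4, with 4 libraries each, whose values are given in the order of replicates 1 to 4. The labels name no treatment and no allele beyond the strain, and age is the only difference they give between the groups. Whether the libraries of a group stem from different mice is not stated. The p-values therefore reflect the spread among these libraries, which may be technical. The series is framed around the activation of primordial follicles, which takes place in the neonatal ovary over these days.

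In translation initiation, eIF2 brings the initiator tRNA to the small ribosomal subunit, eIF1, eIF1A, eIF3 and eIF5 assemble with it there, and the cap-binding complex eIF4F recruits the mRNA. eIF5B helps the large subunit to join, after which eEF1A delivers each aminoacyl-tRNA and eEF2 moves the ribosome along the mRNA. The activity of the system is set largely after transcription, through phosphorylation of eIF2, of the eIF4E-binding proteins and of eEF2, none of which a transcript level reports.

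The totals over the listed genes ran from 443333 to 505035 FPKM per library, and read depth is unknown. Entries at exactly 0 numbered 222 to 1234 per library, with the most in PND1 replicate 1 (1234) and PND4 replicate 1 (1097). Mitochondrial entries, with names beginning in mt-, took 26.6% to 30.6% of the total in the PND1 libraries, 29.4% in PND4 replicate 1 and 22.4% to 23.4% in the other PND4 libraries. Of 10 granulosa and pregranulosa markers, 10 had an entry, and their summed level ran from 646 to 935 FPKM at PND1 and from 681 to 906 FPKM at PND4. Krt18, a keratin also found in surface epithelium, gave 378 to 552 FPKM of it, and Wnt4 stood at 17.96 to 23.7 FPKM at PND1 and 12.1 to 17.94 FPKM at PND4. Foxl2, of the same list, went the other way, with means of 15.9 FPKM at PND1 and 17.5 FPKM at PND4, and the ages overlapped. Markers of other cells were present too. Oocyte markers (13 of 14 with an entry) summed to 16.6 to 103 FPKM at PND1 and 21.1 to 234 FPKM at PND4, stroma markers (8 of 8) to 99.5 to 112 FPKM at PND1 and 128 to 161 FPKM at PND4, and erythroid markers (3 of 6) to 17.1 to 48.9 FPKM and 0.268 to 11.4 FPKM. Genes within the oocyte list went both ways. Figla stood at 1.87 to 7.99 FPKM at PND1 and 0 to 1.25 FPKM at PND4. Zp3 had means of 4.88 FPKM at PND1 and 24.6 FPKM at PND4, and Gdf9 of 1.35 and 6.23 FPKM. Both were highest in PND4 replicate 3, and their ages overlapped. Surface epithelium markers (5 of 6) summed to 65.4 to 168 FPKM and 112 to 207 FPKM, and leukocyte markers (3 of 6) to 8.34 to 23.9 FPKM and 2.92 to 57.1 FPKM. Muscle markers (3 of 5) summed to 366 to 724 FPKM and 332 to 710.5 FPKM. Acta2 gave 325 to 717 FPKM of that sum over the libraries, while Cnn1 stood at 0.36 to 7.03 FPKM and Des at 2.55 to 7.65 FPKM. In bulk samples fewer cells of a type and less RNA per cell cannot be told apart. None of the 6 endothelial markers was among the listed genes. Stroma and erythroid sums did not overlap between the ages, and their part in the differences described here was not tested.

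The 59 genes spanned a wide range of levels. Their mean over the 8 libraries exceeded 100 FPKM in 17, lay between 10 and 100 FPKM in 34 and was below 10 FPKM in 8. The elongation factors stood highest. Eef1a1, which encodes the elongation factor that carries aminoacyl-tRNA to the ribosome, ranked at position 25 of 11783 with a mean of 3063 FPKM, and Eef2, for the translocase, at position 42 with 964 FPKM. Eef1g, Eif5a and Eif4a1 followed at 435, 396 and 325 FPKM. Eef1a1 and Eef2 together made up 46.4% to 50.6% of the summed FPKM of the 59 genes in every library. At the low end, Eif4ebp3 was listed at 0 in 6 libraries, at 0.300 FPKM in PND1 replicate 4 and at 4.22 FPKM in PND4 replicate 3. It was the only member below the filter on low values (at least 1 FPKM in at least 4 libraries), so 58 were tested.

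**Figure D1:**
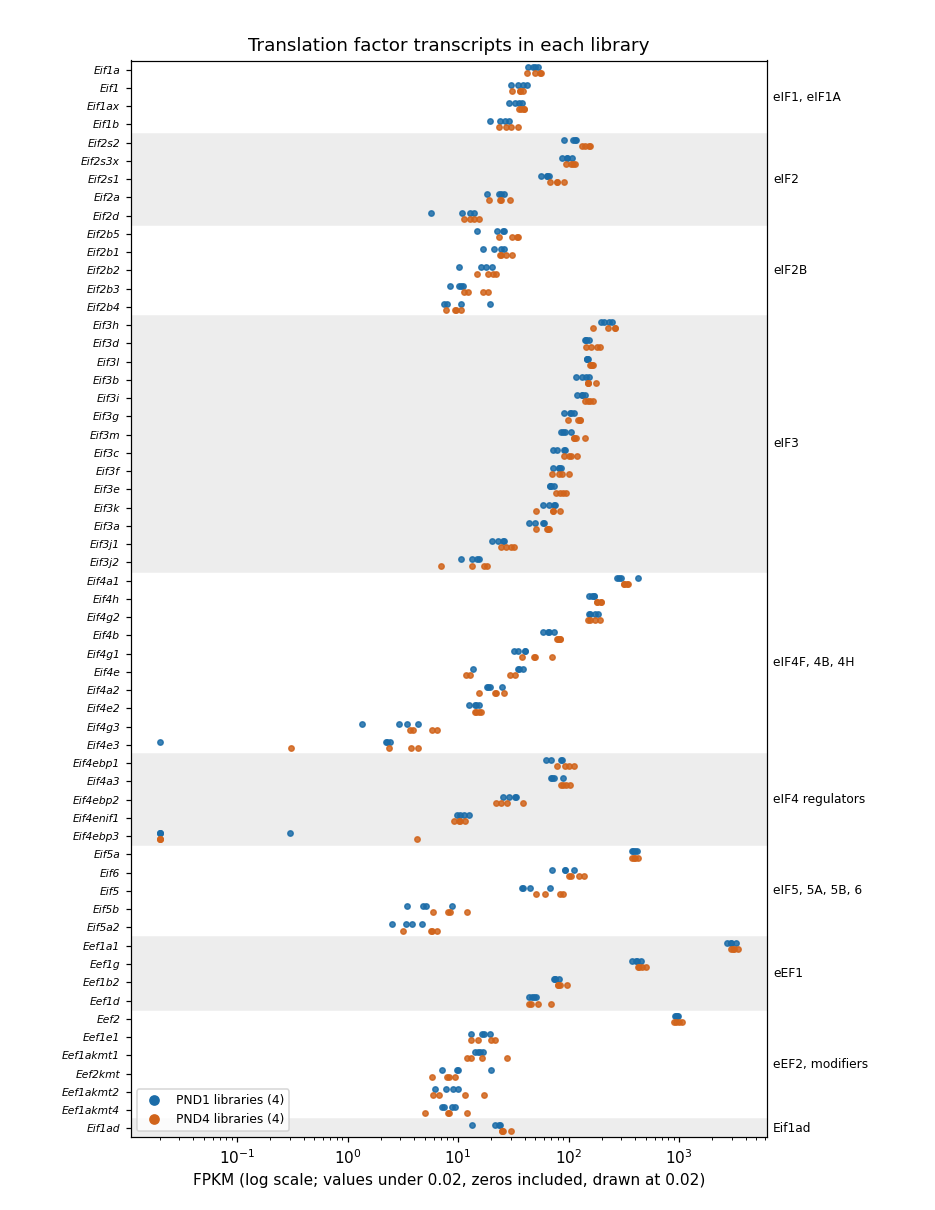
FPKM of the 59 translation factor genes on a log axis, grouped by complex, with 1 point per library (4 PND1 and 4 PND4 libraries). Eef1a1 and Eef2 stand above all other members in each library, and Eif4ebp3 is lowest, listed at 0 in 6 libraries.

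The comparison asks whether these transcripts differ between the ages, and most had slightly higher values at PND4. Of the 58 tested members, 50 had a log2 difference above 0 and 8 below 0, while of all 10756 genes tested 60.3% lay above 0. The median difference of the members was 0.20 on the log2(FPKM + 1) scale, with single genes from -0.53 (Eif4e) to 0.60 (Eif4g3), and that of all genes was 0.078. No member passed the test over all genes (limma, Benjamini-Hochberg adjusted p under 0.05, 0 of 58, smallest adjusted p = 0.736), where 0.0093% of all genes did. At an unadjusted p under 0.05, 13 of 58 members were higher at PND4 and 0 lower, against a background of 4.06% of all genes higher and 1.84% lower. In 10 members every PND4 library stood above every PND1 library, and in 0 every PND4 library stood below, against backgrounds of 3.16% and 1.08%. All 13 and all 10 had a mean of at least 10 FPKM, a level that 51 tested members reached. Among all genes at that level, 5.92% were higher and 2.3% lower at an unadjusted p under 0.05, and 4.42% did not overlap and were higher and 1.14% lower. In the authors' deposited table, 9 of the 59 members had p under 0.05 with higher PND4 values and 0 with lower ones, where 3.74% of its genes were higher and 2.81% lower, and the smallest q of a member was 0.541.

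These counts depended on how the libraries were scaled. With median-of-ratios factors, which set the median of all genes at 0.0086, the median of the members was 0.12. Of their 58 differences, 38 (65.5%) lay above 0, against 51.2% of all genes. Counts above 0 in the groups below likewise stand beside 60.3% of all genes and, with this scaling, 51.2%. At an unadjusted p under 0.05, 2 members (Eif2s2 and Eif3m) were higher, against backgrounds of 2.24% higher and 2.99% lower. Under that scaling 2 members (Eif2s2 and Eif4b) did not overlap and were higher, against 1.73% of all genes higher and 1.68% lower. Leaving out a library also moved the 13, to 7 when PND1 replicate 1 was dropped, to 6 for PND1 replicate 2 and to 8 for PND4 replicate 4. These were 12.1%, 10.3% and 13.8% of the members, against 3.53%, 3.53% and 3.08% of all genes. The summed FPKM of the 59 genes was 7736, 8319, 8042 and 7963 in PND1 replicates 1 to 4 and 8560.4, 8449, 8727 and 9032 in PND4 replicates 1 to 4, so that the ages did not overlap. As a share of all listed FPKM it was 1.53% to 1.77% at PND1 and 1.72% to 1.97% at PND4, and the ages overlapped. Outside the mt- entries the share was 2.15% to 2.43% at PND1 and 2.44% to 2.54% at PND4, adjoining ranges without overlap.

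**Figure D2:**
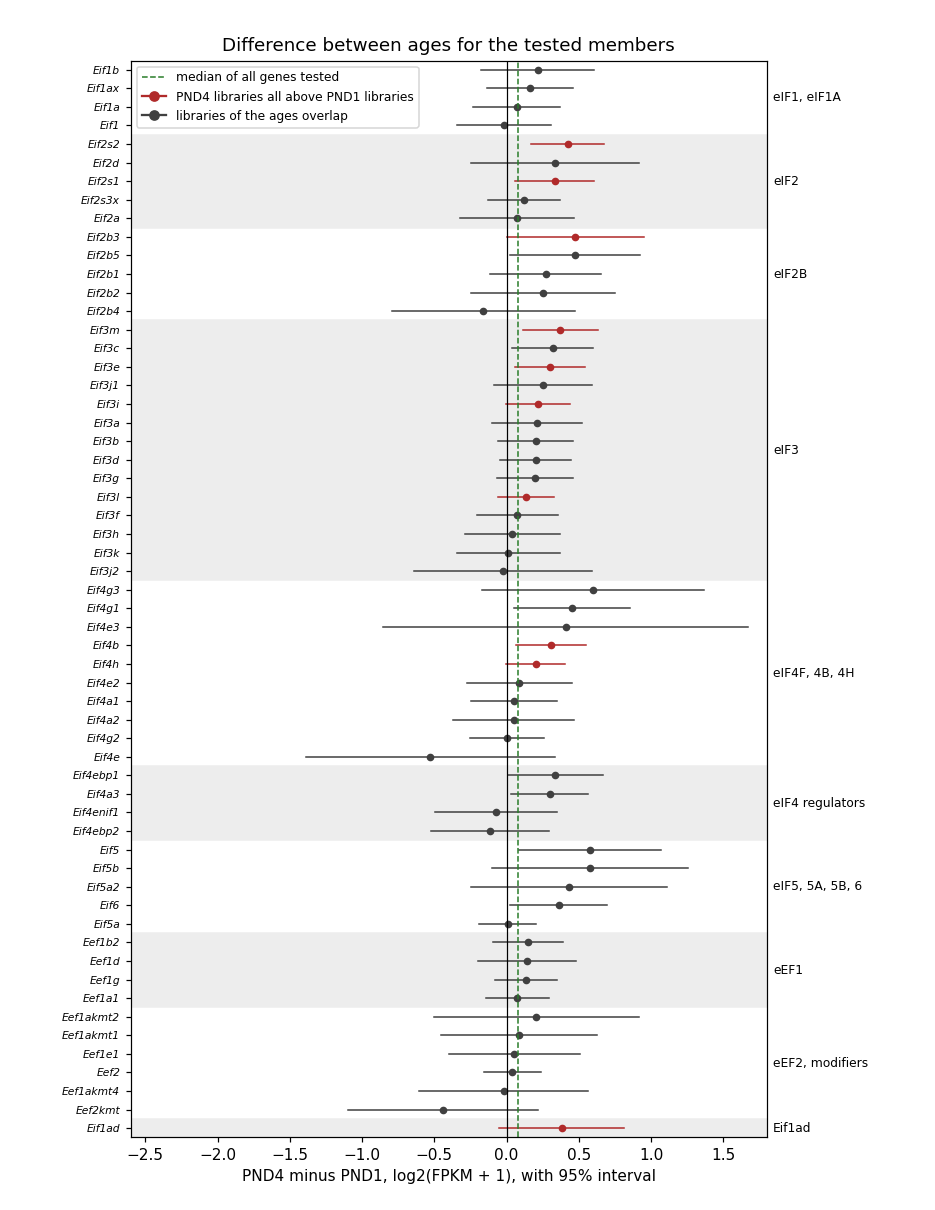
PND4 minus PND1 difference on the log2(FPKM + 1) scale for the 58 tested members, by complex, with the 95% interval from limma and the median of all genes (0.078) as a dashed line. Of the 58 points, 50 lie above 0, and the 10 members in red had no overlap between the ages.

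The distance between the members and all genes was uneven over the libraries and widest in PND4 replicate 1. Taking each gene relative to its PND1 mean, the median member lay above the median gene by 0.28 in PND4 replicate 1, by 0.081 in PND4 replicate 2 and by 0.033 in PND4 replicate 4, and below it by 0.011 in PND4 replicate 3. Among the PND1 libraries this distance was 0.067, 0.029, -0.021 and -0.092 for replicates 1 to 4. The median of the members minus that of all genes was 0.12 over all libraries, 0.041 without PND4 replicate 1 and 0.060 without PND1 replicate 4. PND4 replicate 1 also had the second-highest number of entries at 0 and the PND4 group's highest mitochondrial share, and the part of these in the distance was not tested.

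**Figure D3:**
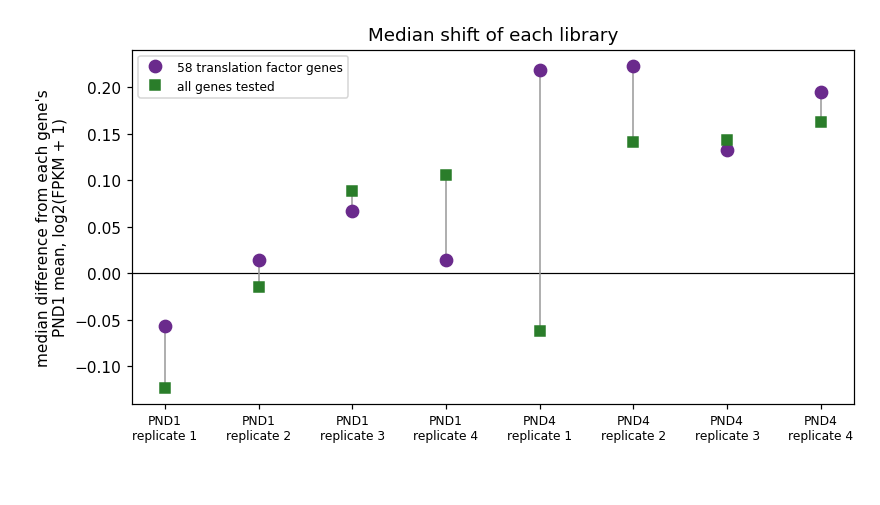
Median difference from each gene's PND1 mean in every library, on the log2(FPKM + 1) scale, for the 58 tested members (circles) and all 10756 genes tested (squares). The members lie at 0.13 to 0.22 in the 4 PND4 libraries, and the distance to all genes is widest in PND4 replicate 1, at 0.28.

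Of the eIF1 and eIF1A genes, whose products keep the ribosome scanning until a start codon is found, 3 of 4 had differences above 0 (2 of 4 with median-of-ratios scaling) and none reached an unadjusted p of 0.05. Of all genes, 60.3% lay above 0, and 51.2% with that scaling. Eif1a stood at 43.2, 47.6, 52.7 and 50.047 FPKM across PND1 and 42.1, 55.7, 49.4 and 56.9 FPKM across PND4. The values of the ages overlapped (log2 difference 0.069, 95% interval -0.23 to 0.37, limma unadjusted p = 0.62, adjusted p = 0.938). Its X-linked paralog Eif1ax (ENSMUSG00000067194, chrX:159372178-159389928 on the plus strand; all positions are on GRCm38) stood at 28.8, 38.1, 35.9 and 32.7 FPKM across PND1 and 39.5, 39.4, 35.4 and 37.3 FPKM across PND4, with PND1 replicate 1 lowest. Eif1b was measured at 24.8 ± 4.02 FPKM (PND1) and 28.955 ± 5.05 FPKM (PND4) (SD, n = 4).

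Eif1 itself (ENSMUSG00000035530, chr11:100319885-100322096 on the plus strand) stood at 41.8, 29.9, 34.9 and 38.7 FPKM across PND1 and 36.7, 30.999, 36.6 and 38.5 FPKM across PND4, with no separation of the ages (log2 difference -0.019, 95% interval -0.34 to 0.30, limma unadjusted p = 0.899, adjusted p = 0.985). Its level cannot be read from this entry alone. Of 970 pseudogene entries in the table, 24 matched a transcript of a member at 90% identity or more over at least 200 bases, and 6 of these matched Eif1, each at 94.1% to 98.3% identity. Together they stood at 90.965, 75.8, 68.7 and 67.4 FPKM across PND1 and 67.8, 65.2, 66.3 and 70.4 FPKM across PND4, a mean of 71.5 FPKM and 199% of the level of Eif1. The sources used here do not say how reads that fit both were shared out.

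The eIF2 genes encode the 3 subunits of the carrier of the initiator tRNA, and the libraries of the ages did not overlap for the alpha and beta subunit genes. Over all genes, 3.16% did not overlap and were higher. With median-of-ratios scaling the beta subunit gene alone of this group did not overlap, against 1.73% of all genes. Eif2s2, for the beta subunit (ENSMUSG00000074656, chr2:154871410-154892935 on the minus strand), stood at 117, 115, 91.4 and 111 FPKM across PND1 and 132, 153, 141 and 155 FPKM across PND4. Every PND4 library lay above every PND1 library, and it had the smallest p of the 58 members (log2 difference 0.42, 95% interval 0.17 to 0.68, limma unadjusted p = 0.00362, adjusted p = 0.736). A pseudogene entry with 99.5% identity to it, Gm9892, stood at 6.54, 9.78, 8.04 and 10.026 FPKM across PND1 and 12.985, 15.5, 11.6 and 14.9 FPKM across PND4, again without overlap. How reads that fit both were shared out is not known.

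Eif2s1, for the alpha subunit whose phosphorylation slows initiation (ENSMUSG00000021116, chr12:78861819-78887010 on the plus strand), stood at 63.9, 56.7, 66.8 and 63.2 FPKM across PND1 and 91.6, 79.3, 67.9 and 78.8 FPKM across PND4. The PND4 libraries were again higher throughout, PND4 replicate 3 by a small margin (log2 difference 0.33, 95% interval 0.06 to 0.60, limma unadjusted p = 0.021, adjusted p = 0.8). The gamma subunit gene Eif2s3x on the X chromosome (ENSMUSG00000035150, chrX:94188707-94212862 on the minus strand) stood at 97.5, 97.4, 108 and 87.5 FPKM across PND1 and 94.6, 115, 104 and 111 FPKM across PND4, and the ages overlapped (log2 difference 0.12, 95% interval -0.13 to 0.37, limma unadjusted p = 0.305, adjusted p = 0.864). Its entry has a partner of 100% identity over 1350 bases, Gm2223, at a mean of 24.0 FPKM, so its level is uncertain. The Y-linked copy Eif2s3y was not analysed here. Eif2a and Eif2d, whose products can bring tRNA to the ribosome without eIF2, were measured at 22.995 ± 3.28 FPKM (PND1) and 24.3 ± 4.27 FPKM (PND4), and at 10.8 ± 3.61 FPKM (PND1) and 13.4 ± 1.66 FPKM (PND4) (each SD, n = 4).

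eIF2B is the exchange factor that recharges eIF2 with GTP, and its 5 subunit genes stood at 10.3 to 26.5 FPKM on average, below the eIF2 subunits. Of the 5, 4 had differences above 0. Eif2b5, for the catalytic epsilon subunit (ENSMUSG00000003235, chr16:20498817-20509323 on the plus strand), stood at 14.996, 22.3, 25.5 and 25.982 FPKM across PND1 and 33.996, 23.7, 30.7 and 35.041 FPKM across PND4. PND4 replicate 2 lay within the PND1 range and PND1 replicate 1 was the lowest of all (log2 difference 0.47, 95% interval 0.024 to 0.92, limma unadjusted p = 0.0406, adjusted p = 0.805). Eif2b3, for the gamma subunit (ENSMUSG00000028683, chr4:117019402-117087306 on the plus strand), stood at 11.2, 10.1, 8.54 and 10.7 FPKM across PND1 and 18.6, 16.7, 12.2 and 11.3 FPKM across PND4. Here the ages did not overlap, but PND4 replicate 4 exceeded the highest PND1 library by little (log2 difference 0.48, 95% interval 0.0025 to 0.95, limma unadjusted p = 0.049, adjusted p = 0.805). Eif2b4, for the delta subunit, had the single difference below 0 in this complex (-0.16), at 11.3 ± 5.49 FPKM (PND1) and 9.36 ± 1.17 FPKM (PND4) (SD, n = 4), with 19.3 FPKM in PND1 replicate 1 against 7.40 to 10.6 FPKM in the other 7 libraries. It shares 204 exonic bases with Snx17 on the opposite strand, and the sources used here do not name a strand setting.

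eIF3 is the largest initiation factor, a scaffold of many subunits on the small ribosomal subunit, and 13 of its 14 genes had differences above 0 (10 with median-of-ratios scaling), with a median of 0.20. At an unadjusted p under 0.05, 3 of 14 were higher and 0 lower, and in 4 the ages did not overlap, against 4.06% and 3.16% of all genes higher by these measures. With median-of-ratios scaling 1 of 14 (Eif3m) was higher and 0 did not overlap, against 2.24% and 1.73% of all genes higher by these measures. The subunit genes did not stand at equal levels. Eif3h was highest at a mean of 225 FPKM, then Eif3d, Eif3l, Eif3b and Eif3i at 158, 154, 147 and 142 FPKM, and Eif3g, Eif3m, Eif3c, Eif3f, Eif3e, Eif3k and Eif3a at 110.4, 107, 93.981, 83.1, 77.7, 69.2 and 57.3 FPKM. The loosely bound eIF3j is encoded in the mouse by Eif3j1 and Eif3j2, at 26.049 and 13.8 FPKM. Transcripts of these 2 genes are 99.4% identical over 2379 bases, so how their reads were divided is uncertain.

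Eif3m (ENSMUSG00000027170, chr2:104999656-105017080 on the minus strand) stood at 85.3, 106, 88.8 and 92.1 FPKM across PND1 and 113, 113, 117 and 140.3 FPKM across PND4. All PND4 values exceeded all PND1 values (log2 difference 0.37, 95% interval 0.11 to 0.63, limma unadjusted p = 0.00911, adjusted p = 0.74). Eif3e (ENSMUSG00000022336, chr15:43250058-43282719 on the minus strand) stood at 67.5, 73.3, 68.7 and 67.981 FPKM across PND1 and 88.2, 83.4, 77.2 and 95.2 FPKM across PND4, also without overlap (log2 difference 0.30, 95% interval 0.061 to 0.54, limma unadjusted p = 0.0185, adjusted p = 0.775). Its PND1 libraries lay within a narrow band and the PND4 libraries spread more widely above it.

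Eif3l (ENSMUSG00000033047, chr15:79075179-79094405 on the plus strand) had the tightest values of the complex, at 146, 146, 149 and 148 FPKM across PND1 and 162, 161, 167 and 156 FPKM across PND4. The difference was small, but the ages did not overlap (log2 difference 0.13, 95% interval -0.063 to 0.33, limma unadjusted p = 0.165, adjusted p = 0.83). Eif3i, for a WD-repeat subunit (ENSMUSG00000028798, chr4:129591960-129600648 on the minus strand), stood at 133, 139.8, 132 and 119 FPKM across PND1 and 165, 155, 141 and 150.3 FPKM across PND4, where PND4 replicate 3 exceeded PND1 replicate 2 by under 1 FPKM (log2 difference 0.22, 95% interval -0.0024 to 0.44, limma unadjusted p = 0.0521, adjusted p = 0.805). Eif3c, for a core subunit (ENSMUSG00000030738, chr7:126546455-126566411 on the minus strand), stood at 71.7, 78.8, 90.1 and 93.6 FPKM across PND1 and 101, 106, 119 and 91.4 FPKM across PND4. PND4 replicate 4 lay below PND1 replicate 4, and the other PND4 libraries lay above all PND1 libraries (log2 difference 0.32, 95% interval 0.037 to 0.60, limma unadjusted p = 0.0299, adjusted p = 0.805). Eif3h (ENSMUSG00000022312, chr15:51786558-51865523 on the minus strand), the most abundant member of the complex, stood at 209, 233, 195 and 246 FPKM across PND1 and 168, 227, 262 and 262 FPKM across PND4, with PND4 replicate 1 lowest of all 8 (log2 difference 0.04, 95% interval -0.29 to 0.37, limma unadjusted p = 0.792, adjusted p = 0.972).

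**Figure D4:**
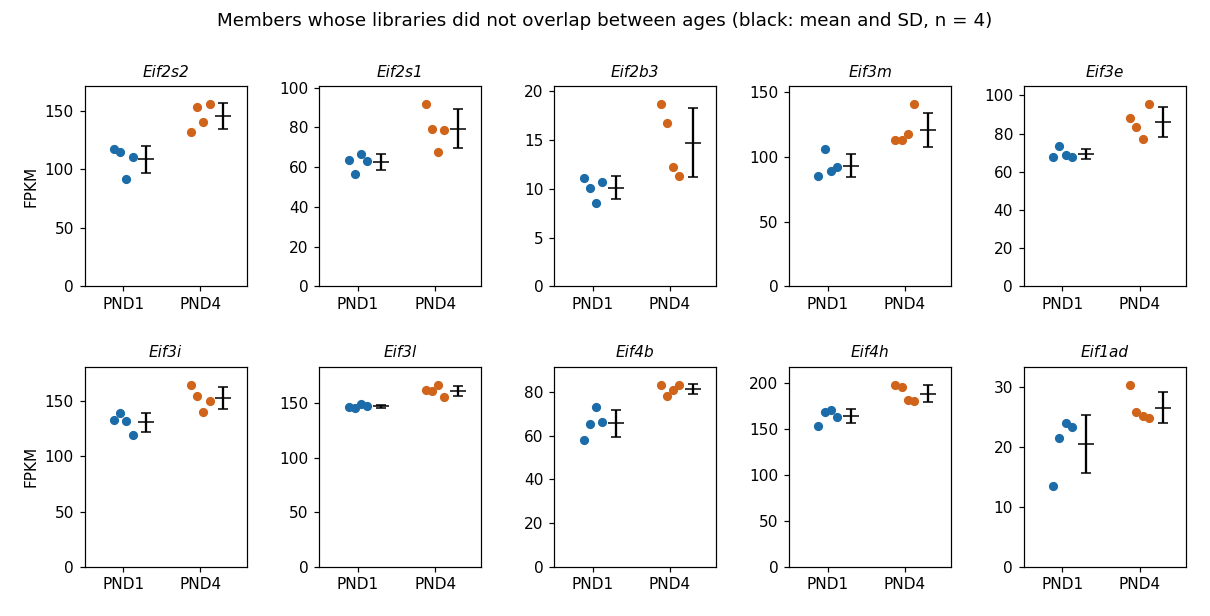
FPKM in each library for the 10 members whose PND1 and PND4 libraries did not overlap, with the mean and SD of each age (n = 4). All PND4 points lie above all PND1 points, by wide margins in Eif2s2 and by narrow ones in Eif3i and Eif2b3.

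The eIF4F complex binds the mRNA cap through eIF4E, unwinds the leader through the helicase eIF4A and bridges to the ribosome through eIF4G. Of its 10 tested genes and cofactors, 9 had differences above 0, and 6 with median-of-ratios scaling, against 60.3% and 51.2% of all genes. In 2 of these genes, both for helicase cofactors, the libraries did not overlap and PND4 was higher, against 3.16% of all genes. With median-of-ratios scaling 1 of them, Eif4b, still did not overlap, against 1.73% of all genes. Eif4b (ENSMUSG00000058655, chr15:102073773-102097173 on the plus strand) stood at 58.3, 65.4, 73.3 and 66.2 FPKM across PND1 and 83.3, 78.2, 80.8 and 83.4 FPKM across PND4, with PND4 libraries within a narrow band above all PND1 libraries (log2 difference 0.31, 95% interval 0.063 to 0.55, limma unadjusted p = 0.0181, adjusted p = 0.775). Eif4h (ENSMUSG00000040731, chr5:134619721-134639490 on the minus strand) stood at 153, 169, 171 and 164 FPKM across PND1 and 199, 196, 181 and 180.3 FPKM across PND4, also without overlap (log2 difference 0.20, 95% interval -0.0041 to 0.41, limma unadjusted p = 0.054, adjusted p = 0.805).

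The helicase gene Eif4a1 (ENSMUSG00000059796, chr11:69666936-69672423 on the minus strand) stood at 424, 296, 276 and 289 FPKM across PND1 and 339, 316, 315 and 344 FPKM across PND4. PND1 replicate 1 stood apart at 424 FPKM while the other 7 libraries lay between 276 and 344 FPKM, and the ages overlapped (log2 difference 0.053, 95% interval -0.24 to 0.35, limma unadjusted p = 0.703, adjusted p = 0.958). A pseudogene entry of 99.9% identity, Eif4a-ps4, stood at 122, 117, 116 and 139 FPKM across PND1 and 134, 145, 133 and 148 FPKM across PND4, or 40.6% of the mean of Eif4a1, so the level of Eif4a1 is uncertain. Eif4a2, for the second helicase paralog (ENSMUSG00000022884, chr16:23107444-23114136 on the plus strand), stood at 24.8, 18.8, 18.3 and 19.4 FPKM across PND1 and 25.8, 15.4, 22.015 and 21.8 FPKM across PND4 (log2 difference 0.049, 95% interval -0.37 to 0.47, limma unadjusted p = 0.802, adjusted p = 0.973). Eif4a1 exceeded Eif4a2 by 13.2 to 20.5 times in FPKM over the 8 libraries. The scaffold gene Eif4g1 (ENSMUSG00000045983, chr16:20668313-20692884 on the plus strand) stood at 34.8, 32.1, 40.1 and 40.6 FPKM across PND1 and 49.7, 48.9, 70.5 and 38.2 FPKM across PND4, with PND4 replicate 3 highest and PND4 replicate 4 inside the PND1 range (log2 difference 0.45, 95% interval 0.051 to 0.85, limma unadjusted p = 0.0304, adjusted p = 0.805). Its paralog Eif4g2, whose product lacks the eIF4E-binding part, was more abundant, at 167 ± 15.2 FPKM (PND1) and 168 ± 19.9 FPKM (PND4) (SD, n = 4), with a log2 difference of 0.0027. Eif4g3 was low, at 3.02 ± 1.26 FPKM (PND1) and 4.94 ± 1.37 FPKM (PND4) (SD, n = 4).

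The cap-binding protein gene Eif4e (ENSMUSG00000028156, chr3:138526179-138559696 on the plus strand) was singled out after its values were seen. It stood at 13.7, 38.999, 34.6 and 35.8 FPKM across PND1 and 11.7, 29.4, 12.7 and 32.5 FPKM across PND4. There were 3 low values, 11.7 to 13.7 FPKM in PND1 replicate 1 and PND4 replicates 1 and 3, and 5 values of 29.4 to 39.0 FPKM. The low values occurred at both ages, and the 95% interval of the difference between the ages included 0 (log2 difference -0.53, 95% interval -1.39 to 0.33, limma unadjusted p = 0.205, adjusted p = 0.835). Without PND1 replicate 1 the difference was -0.86 (limma, unadjusted p = 0.0289), and the remaining PND1 libraries then all lay above the PND4 libraries. The 2 libraries with the most entries at 0 were among the 3, but PND4 replicate 3, with 642 such entries, was not one of those. A matching pseudogene entry, Gm7327, had 2.64 to 8.48 FPKM and was 6.80, 2.64 and 7.05 FPKM in the 3 low libraries. The cap-binding paralogs Eif4e2 and Eif4e3 stood at 14.2 ± 1.20 FPKM (PND1) and 15.1 ± 0.748 FPKM (PND4), and at 1.73 ± 1.15 FPKM (PND1) and 2.69 ± 1.78 FPKM (PND4) (each SD, n = 4).

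The eIF4E-binding proteins hold eIF4E away from eIF4G when they are not phosphorylated by mTOR complex 1. Eif4ebp1 (ENSMUSG00000031490, chr8:27260329-27276674 on the plus strand) stood at 84.9, 62.7, 69.9 and 87.4 FPKM across PND1 and 78.968, 102, 92.2 and 113 FPKM across PND4. The 3 highest values were PND4 libraries, but PND4 replicate 1 lay inside the PND1 range (log2 difference 0.34, 95% interval 0.0077 to 0.67, limma unadjusted p = 0.0457, adjusted p = 0.805). Eif4ebp2 (ENSMUSG00000020091, chr10:61428491-61452661 on the minus strand) stood at 32.8, 25.7, 33.2 and 28.6 FPKM across PND1 and 22.1, 38.5, 27.7 and 24.5 FPKM across PND4, and the ages overlapped (log2 difference -0.11, 95% interval -0.52 to 0.30, limma unadjusted p = 0.552, adjusted p = 0.929). The FPKM ratio of Eif4ebp1 to Eif4e was 6.20, 1.61, 2.02 and 2.44 across PND1 and 6.73, 3.46, 7.24 and 3.47 across PND4. It was above 6 in the 3 libraries with low Eif4e and between 1.61 and 3.47 in the others. Eif4e is the denominator and these 3 were picked for low Eif4e, so the split follows largely from that choice. Eif4enif1, for the protein that carries eIF4E into the nucleus, stood at 10.998 ± 1.22 FPKM (PND1) and 10.4 ± 0.997 FPKM (PND4) (SD, n = 4). Eif4a3, for the helicase of the exon junction complex, stood at 75.7 ± 9.21 FPKM (PND1) and 93.028 ± 7.80 FPKM (PND4) (SD, n = 4), with an unadjusted p of 0.0322 (limma, adjusted p = 0.805).

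**Figure D5:**
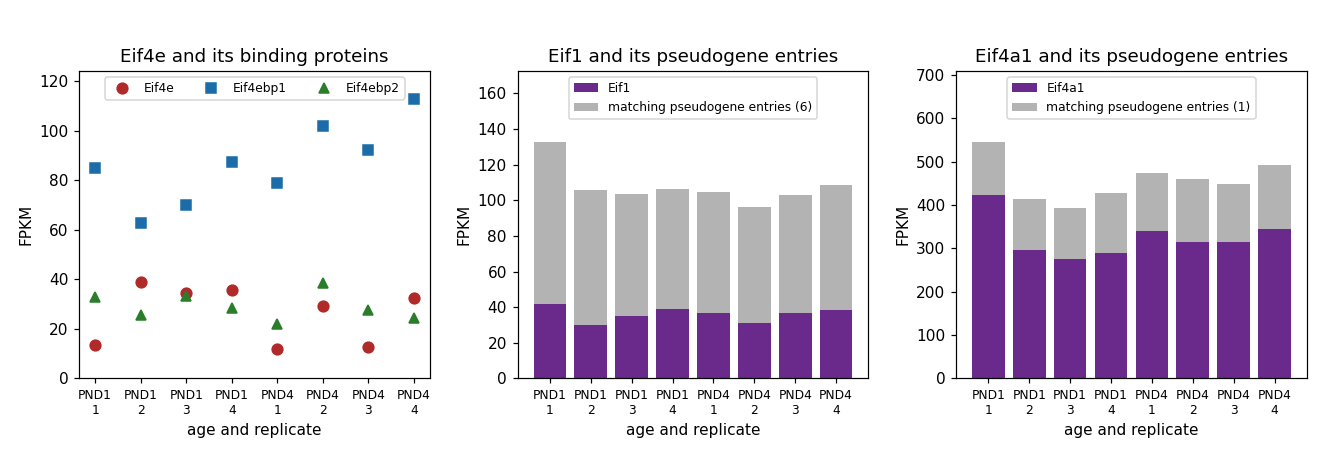
FPKM by library of Eif4e, Eif4ebp1 and Eif4ebp2 (left), and of Eif1 (middle) and Eif4a1 (right) with the summed FPKM of their matching pseudogene entries stacked in grey. Eif4e is at 11.7 to 13.7 FPKM in 3 libraries and at 29.4 to 39.0 FPKM in 5, and the grey part exceeds the Eif1 bar in each library.

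The 5 genes of eIF5, eIF5A, eIF5B and eIF6 all had differences above 0, except Eif5a with median-of-ratios scaling. Eif5, for the factor that triggers GTP hydrolysis by eIF2 (ENSMUSG00000021282, chr12:111538016-111546752 on the plus strand), stood at 38.1, 45.021, 68.4 and 38.7 FPKM across PND1 and 83.7, 51.3, 60.7 and 88.9 FPKM across PND4. PND1 replicate 3 lay above 2 of the PND4 libraries (log2 difference 0.58, 95% interval 0.087 to 1.07, limma unadjusted p = 0.0251, adjusted p = 0.805). Eif5a, for the factor that carries hypusine and eases the joining of difficult residues (ENSMUSG00000078812, chr11:69916714-69921958 on the minus strand), stood at 403, 418, 384 and 373 FPKM across PND1 and 398, 387, 427 and 375 FPKM across PND4. It had the smallest coefficient of variation of all 59 members, 4.92% over the 8 libraries, and no difference beyond its error (log2 difference 0.0083, 95% interval -0.19 to 0.21, limma unadjusted p = 0.928, adjusted p = 0.989). Its paralog Eif5a2 stood at 3.60 ± 0.905 FPKM (PND1) and 5.26 ± 1.42 FPKM (PND4) (SD, n = 4). Eif5b stood at 5.58 ± 2.29 FPKM (PND1) and 8.63 ± 2.50 FPKM (PND4) (SD, n = 4). Eif6, whose product keeps the ribosomal subunits apart, stood at 92.01 ± 16.8 FPKM (PND1) and 118 ± 16.5 FPKM (PND4) (SD, n = 4; limma unadjusted p = 0.0395, adjusted p = 0.805).

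All 4 listed eEF1 genes had differences above 0, between 0.074 and 0.15, except Eef1a1 with median-of-ratios scaling, and none reached an unadjusted p of 0.05. Eef1a1 (ENSMUSG00000037742, chr9:78478449-78489151 on the minus strand) stood at 2733, 3266, 2957 and 2984 FPKM across PND1 and 3131, 2928, 3099 and 3403 FPKM across PND4. The ages overlapped, with PND1 replicate 1 lowest and PND4 replicate 4 highest (log2 difference 0.074, 95% interval -0.14 to 0.29, limma unadjusted p = 0.472, adjusted p = 0.907). The 7 pseudogene entries that matched it had a summed mean of 461 FPKM, 15.1% of its own. An annotated miRNA entry, Gm26377, shares 108 exonic bases with Eef1a1 on the same strand and was listed at a mean of 1274 FPKM. How reads that fit both were counted is not known. The paralog Eef1a2 was not analysed here. The exchange factor genes stood at 415 ± 32.8 FPKM (PND1) and 455 ± 32.001 FPKM (PND4) for Eef1g, 76.6 ± 4.15 FPKM (PND1) and 85.2 ± 7.32 FPKM (PND4) for Eef1b2 and 47.5 ± 2.61 FPKM (PND1) and 53.2 ± 11.5 FPKM (PND4) for Eef1d (each SD, n = 4).

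Eef2 (ENSMUSG00000034994, chr10:81176631-81182498 on the plus strand) stood at 960.2, 940.2, 984 and 916 FPKM across PND1 and 907, 993, 1069 and 940.3 FPKM across PND4. It varied by 5.40% over the libraries (coefficient of variation), and the ages overlapped (log2 difference 0.039, 95% interval -0.16 to 0.24, limma unadjusted p = 0.675, adjusted p = 0.951). Its kinase gene Eef2k was not analysed here. The methyltransferase genes that modify the elongation factors were low, with means of 16.4 FPKM for Eef1akmt1, 9.76 for Eef2kmt, 9.30 for Eef1akmt2 and 8.30 for Eef1akmt4. Eef2kmt, singled out after its values were seen, stood at 19.7, 9.74, 7.12 and 10.045 FPKM across PND1 and 5.77, 9.41, 7.97 and 8.28 FPKM across PND4, with PND1 replicate 1 more than 9 FPKM above any other library (log2 difference -0.44, 95% interval -1.10 to 0.22, limma unadjusted p = 0.167, adjusted p = 0.83). It shares 472 exonic bases with Alg1 on the opposite strand. Eef1e1, for a scaffold protein of the tRNA synthetase complex, stood at 16.5 ± 2.62 FPKM (PND1) and 17.4 ± 3.97 FPKM (PND4) (SD, n = 4).

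Eif1ad, which the name rule takes in and whose product resembles eIF1A, belongs to none of these complexes. It stood at 13.4, 21.4, 23.9 and 23.3 FPKM across PND1 and 30.3, 25.7, 25.1 and 24.8 FPKM across PND4. The ages did not overlap, and PND1 replicate 1 was far below the rest (log2 difference 0.38, 95% interval -0.051 to 0.81, limma unadjusted p = 0.0782, adjusted p = 0.805). It shares 428 exonic bases with Banf1 on the opposite strand, an entry with a mean of 126 FPKM, so reads within those bases, 15.3% of the exonic length of Eif1ad, cannot be told apart without strand.

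Several elongation factor and eIF3 mRNAs are textbook examples of 5′ terminal oligopyrimidine (TOP) mRNAs, which begin with a C and a run of pyrimidines and whose translation follows mTOR complex 1. Of 9 members on such a list (Eef1a1, Eef1b2, Eef1d, Eef1g, Eef2, Eif3e, Eif3f, Eif3h and Eif4b), 9 had differences above 0 (5 with median-of-ratios scaling) with a median of 0.13, and the other 49 tested members had a median of 0.20. RefSeq start-site windows on GRCm38.p6 were found for 45 of the 59 members. A C followed by at least 4 pyrimidines, on the sense strand and beginning within 2 bases of an annotated start, was present in 8 of the 45 members (17.8%) and in 10.6% of 27025 genes. These 27025 are all genes with such a window, whether or not they are among the 11783 listed genes. The share among the listed genes was not computed. The median difference of those 8 was 0.17, and that of the 37 other members with a window 0.20. Of the 9 members listed above, only Eef1a1 and Eif3f were among the 8, and Eef2 had a window without a match. The 8 and the 37 therefore do not separate TOP mRNAs from others. The following windows, from 10 bases before to 20 bases from the start on, show in capitals the run from the matched C on for a member of eEF1, 2 of eIF3 and the X-linked eIF2 subunit gene.
Eef1a1, chr9:78481705-78481734, minus strand: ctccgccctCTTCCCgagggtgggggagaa
Eif3f, chr7:108934405-108934434, plus strand: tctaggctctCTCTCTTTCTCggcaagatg
Eif3l, chr15:79075213-79075242, plus strand: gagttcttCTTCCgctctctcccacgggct
Eif2s3x, chrX:94212632-94212661, minus strand: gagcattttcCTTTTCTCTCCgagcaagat
In Eif3f and Eif2s3x the capitals begin at a C on the annotated start itself. In each of these windows further pyrimidines stand just before the capitals, so the marked stretch is part of a longer run.

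Genes of the translation machinery are also known for E-boxes, the palindromic sites of MYC and its relatives. The motif CACGTG, which reads the same on both strands, occurred between 250 bases before and 50 bases after an annotated start in 12 of the 45 members (26.7%) and in 8.09% of the 27025 genes with a window. The 27025 again include genes outside the listed ones, and the share among the listed genes was not computed. The 12 members had a median difference of 0.063 and the 33 others with a window 0.20. The ATF4-type motif TGATGNAAN, searched on both strands, occurred in 1 of 45 members (Eif2s3x, 2.22%) against 4.5% of the 27025 genes. The next windows show the E-box in capitals for the cap-binding protein, helicase, helicase cofactor and translocase genes, on the strand of each gene.
Eif4e, chr3:138527028-138527057, plus strand: ctcgccagcgacCACGTGatcacttttttt
Eif4e, chr3:138527192-138527221, plus strand: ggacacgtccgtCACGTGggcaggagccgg
Eif4a1, chr11:69672595-69672624, minus strand: cgatcgcctccgCACGTGtaaaggtgctgg
Eif4h, chr5:134639488-134639517, minus strand: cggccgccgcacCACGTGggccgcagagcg
Eef2, chr10:81176576-81176605, plus strand: acccggcgccgtCACGTGacgcacccaacc
Eif4e holds 2 such sites in its window, and Eif4h is the single member among the 12 whose libraries did not overlap between the ages. Of all genes, 3.16% did not overlap and were higher, and with median-of-ratios scaling Eif4h overlapped too.

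Other genes of the pathway were described from lists chosen with earlier results of these data known, and no gene of them passed the test (limma, adjusted p under 0.05). Over all genes, 60.3% had differences above 0, and 51.2% with median-of-ratios scaling. Of the genes that set eIF2 phosphorylation, 5 of 6 were tested, 3 with differences above 0, and none had an unadjusted p under 0.05. The most abundant were the phosphatase subunit gene Ppp1r15b, at 22.6 ± 6.08 FPKM (PND1) and 29.7 ± 3.77 FPKM (PND4), and the kinase gene Eif2ak1, at 14.96 ± 1.46 FPKM (PND1) and 14.9 ± 1.26 FPKM (PND4) (each SD, n = 4). Of 13 listed genes of the mTOR and MAPK arm, 12 were tested. Of these, 6 had differences above 0 and 6 below, and none had an unadjusted p under 0.05. The S6 kinase gene Rps6kb1 stood at 3.96, 8.94, 7.54 and 9.88 FPKM across PND1 and 11.2, 13.1, 9.95 and 10.1 FPKM across PND4, without overlap (limma, unadjusted p = 0.0711, adjusted p = 0.805), though with median-of-ratios scaling the ages overlapped. In that list Rps6, for a ribosomal protein that S6 kinase phosphorylates, stood at 603 ± 23.2 FPKM (PND1) and 652 ± 48.9 FPKM (PND4), and the small GTPase gene Rheb at 52.03 ± 7.30 FPKM (PND1) and 63.6 ± 7.61 FPKM (PND4) (each SD, n = 4).

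Of 12 genes for poly(A)-binding, helicase, termination and recycling factors, 11 had differences above 0 and 2 were higher at an unadjusted p under 0.05, against 60.3% and 4.06% of all genes. With median-of-ratios scaling these counts were 8 and 0, against 51.2% and 2.24% of all genes. Abce1, for the factor that splits ribosomes after termination, stood at 99.95, 103, 109 and 102 FPKM across PND1 and 125, 127, 122 and 132 FPKM across PND4, without overlap (log2 difference 0.29, limma unadjusted p = 0.0112, adjusted p = 0.74). Pabpc4 stood at 54.7 ± 3.71 FPKM (PND1) and 70.3 ± 8.60 FPKM (PND4) (SD, n = 4; limma unadjusted p = 0.0195, adjusted p = 0.781). The most abundant of this list, Pabpc1 and the helicase gene Ddx3x, stood at 417 ± 47.7 FPKM (PND1) and 493 ± 74.7 FPKM (PND4), and at 124 ± 15.5 FPKM (PND1) and 145 ± 17.5 FPKM (PND4) (each SD, n = 4). Of 8 genes for hypusine and diphthamide, the modified residues of eIF5A and eEF2, 5 had differences above 0 and 1 was higher at an unadjusted p under 0.05, both with and without median-of-ratios scaling. That gene, Dph7, stood at 1.11, 0.418, 0.669 and 3.21 FPKM across PND1 and 5.31, 4.06, 3.45 and 6.02 FPKM across PND4, low values that did not overlap (limma, unadjusted p = 0.00634, adjusted p = 0.74). The most abundant were Dohh and Dhps, the enzymes of hypusine synthesis, at 36.98 ± 5.49 FPKM (PND1) and 32.4 ± 6.40 FPKM (PND4), and at 9.48 ± 2.77 FPKM (PND1) and 12.2 ± 4.28 FPKM (PND4) (each SD, n = 4). Of the 10 mitochondrial translation factor genes, 7 had differences above 0 and none had an unadjusted p under 0.05, with Tufm at 48.3 ± 8.42 FPKM (PND1) and 45.8 ± 4.77 FPKM (PND4) and Tsfm at 19.9 ± 6.86 FPKM (PND1) and 15.9 ± 7.13 FPKM (PND4) (each SD, n = 4).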

How the data were processed

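Transcripts of 8 granulosa cell libraries, 4 per age, were sequenced. The submitters' processing notes name Trim Galore, HISAT2 and GRCm38 without versions. The values deposited by the authors are FPKM per gene, per the file headers. For the program behind them, the annotation, the strand setting and the filter, nothing is stated in the labels or headers. A second table, deposited by the authors, gives a ratio (fold) of PND1 over PND4, its log2 and a p-value and q-value per gene, and its test is not stated.

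Values were taken as log2(FPKM + 1), a scale on which a difference understates the change of low genes. The filter (1 FPKM or more in 4 or more libraries) kept 10756 of 11783 genes. The contrast PND4 minus PND1 was fitted with limma 3.58.1 (R 4.3.3, eBayes with trend), with Benjamini-Hochberg adjustment over all genes and a threshold of 0.05. The members, lists, named genes and alternatives were chosen with earlier results of these data known. Values in every library are given for the highest member of each complex, the 8 smallest p-values, members without overlap between ages, and set paralog pairs. Eif4e, Eif1, Eef2kmt and pseudogene entries were added after their values were seen. Whole reads were looked for in 2467 genes with 1 annotated transcript, of whose low values at best 26.4% to 31.0% lay within 0.1 of a multiple, so depth is unknown. The fit was tested on simulated data for this comparison over 10756 genes, with 200 changed in each of 10 simulations. The changes were folds of FPKM + 1, which for low genes differ from folds of FPKM. The fit recovered 6.57% of genes changed by 1.5-fold, 29.9% by 2-fold and 70.3% by 4-fold, with 35 false among 743 calls. Positions are from GENCODE M21 (GRCm38), which held 59 of 59 members. Pseudogene transcripts were aligned with BLAST 2.17.0, and start-site windows are from RefSeq on GRCm38.p6. Figures were drawn with matplotlib 3.10.9.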

Additional observations from a re-analysis of the deposited data

Results flagged for a closer look

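Over 117 sets of 4 libraries (1 member at 1 age, with at least 1 FPKM in 1 library), 5 libraries stood far from the other 3 (Dixon's test at the 95% level), where chance gives about 1 in 20. Eif3b was highest in PND4 replicate 1, at 178.4 FPKM against 149 to 151 FPKM in the other PND4 libraries. Eif3a was lowest in PND4 replicate 4, at 51.27 FPKM against 63.9 to 65.9 FPKM. Eif4a1 was highest in PND1 replicate 1, at 424.1 FPKM, and Eif4e3 was listed at 0 there. Eif4ebp3 was at 4.223 FPKM in PND4 replicate 3 and listed at 0 in the other 3 PND4 libraries.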

How the results depend on the processing

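No member passed the adjusted threshold under any of the 18 alternatives run, with a smallest adjusted p of 0.513 to 0.889 across them, and 45 to 51 members had a difference above 0 when 1 library was left out, 45 to 49 of them among the 50 above 0 with all libraries. These were 77.6% to 87.9% of members, against 54.1% to 68.2% of all genes. Without PND4 replicate 1 the shares were 79.3% and 68.2%. Members higher at an unadjusted p under 0.05 numbered 13, and 2 with median-of-ratios scaling, 2 with upper-quartile scaling, 7 when scaled without mitochondrially encoded entries, 7 with both libraries numbered 1 left out (these last 2 chosen after seeing the data, as was robust variance estimation) and 6 to 11 with 1 library left out. In that order these were 22.4%, 3.45%, 3.45%, 12.1%, 12.1% and 10.3% to 19% of the members. Of all genes it was 4.06%, 2.24%, 2.13%, 3.11%, 5.02% and 3.08% to 5.16%. Members without overlap and higher numbered 10, and 2, 2, 6 and 16 under the first 4 of these alternatives (3.45%, 3.45%, 10.3% and 27.6% of members, against 1.73%, 1.68%, 2.57% and 10.2% of all genes). With 1 library left out they numbered 11 to 14, or 19% to 24.1% against 4.48% to 7.5% of all genes, since fewer libraries overlap less often. Lower members numbered 0 to 1 with 1 library left out by either measure. Of all genes, 1.46% to 2.18% were then lower at an unadjusted p under 0.05, and 1.68% to 2.53% did not overlap and were lower. With both libraries numbered 1 left out, 1 lower member did not overlap, against 3.8% of all genes. The members' median difference was 0.12 with median-of-ratios scaling, 0.112 with upper-quartile scaling, 0.146 with both libraries numbered 1 left out and 0.13 to 0.198 with 1 library left out. Over all genes 1 was called, and 0 with both libraries numbered 1 left out and 0 to 1 with 1 library left out. Counts of higher members and their medians were lower with both scalings. The median difference of all genes was then 0.00859 with median-of-ratios and 0.000998 with upper-quartile scaling, against 0.078 without them. The cause of the changes under any alternative was not tested.

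Some small differences changed sign. With median-of-ratios and upper-quartile scaling, they were -0.0045 and -0.013 for Eef1a1, -0.040 and -0.048 for Eef2, -0.0074 and -0.016 for Eif1a, -0.038 and -0.047 for Eif3h, -0.026 and -0.034 for Eif4a1, -0.026 and -0.034 for Eif4a2, and -0.070 and -0.079 for Eif5a. The median of the group of Eef2, Eef1e1 and the elongation factor methyltransferase genes was then -0.030 and -0.039. Eif5a was at -0.0069 when scaled without mitochondrially encoded entries, and Eif1 at 0.035 and Eif4ebp2 at 0.031 with both libraries numbered 1 left out. With 1 library left out, Eef2 ran from -0.0053 to 0.074, Eif1 from -0.11 to 0.050, Eif3h from -0.030 to 0.18, Eif4a1 from -0.012 to 0.19, Eif4a2 from -0.048 to 0.19, Eif5a from -0.027 to 0.037, and the median of that group from -0.11 to 0.12.

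The titles share replicate numbers across ages, but deviations of same-numbered libraries correlated at 0.046, -0.0088, 0.032 and 0.12, and libraries did not all correlate best with their own number, so the numbers were not taken as pairs. With the replicate number as a block, 10 members (17.2%) were higher at an unadjusted p under 0.05, against 4.27% of all genes. Of the members 0 passed the adjusted test, and 1 gene was called over all genes. Depth is unknown, so counting error could not be given.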

Other observations

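The members varied unevenly over the 8 libraries. The coefficient of variation was 4.92% for Eif5a, 5.29% for Eif3l and 5.40% for Eef2, against 43.9% for Eif4e and 43.8% for Eef2kmt, among members with a mean of at least 9 FPKM. Among members picked after their values were seen, PND1 replicate 1 held the highest value of all 8 libraries in Eif4a1, Eif2b4 and Eef2kmt and the lowest in Eif2d, Eif1ad and Eif2b5.

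Ratios between members in FPKM differed in how steady they were. Eif4g2 over Eif4g1 was 4.51, 5.37, 4.65 and 3.77 across PND1 and 3.89, 3.55, 2.12 and 4.07 across PND4, and Eif1a over Eif1ax ran from 1.07 to 1.53. Eef1a1 over Eef2 ran from 2.85 to 3.62.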
